A study of Rattus norvegicus with 12 samples.

Results

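The small heat shock proteins of the rat left ventricle were compared between hearts taken after 7 weeks of treadmill running and hearts of sedentary animals. The family was defined as 6 genes, Hspb1, Hspb2, Hspb3, Hspb6, Hspb8 and Cryab, and its members as all probe sets annotated to exactly 1 of them. Of 8740 probe sets on the array, 10 met this rule, and they stood for 4 of the 4736 genes that have a probe set of their own. They were 4 of Hspb1 and 2 each of Hspb2, Hspb6 and Cryab, and all 10 passed the filter on dim probe sets. No probe set met the rule for Hspb3 or Hspb8, which were not analysed here, and 1 probe set that names both Asb2 and Hspb1 was left out.

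Each sample of left ventricular total RNA had its own single-channel expression array, with 6 exercised (labels 1, 4, 5, 7, 8 and 9) and 6 sedentary (labels 13, 16, 17, 21, 23 and 24). The labels give no genotype, strain, age or sex, and no interval between the last run and sampling. They do not state that each sample is a separate animal, so the replicate spread behind each p-value may in part be technical. In a piece of ventricle, more cells of a type and more RNA per cell cannot be told apart.

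Small heat shock proteins share an alpha-crystallin domain, assemble into oligomers, and hold unfolding proteins in a soluble state without using ATP, so that the ATP-driven chaperones can refold or clear them. Heart muscle is rich in several of them, where they bind desmin, actin and titin filaments and the Z-disc, and most are phosphorylated by stress or cyclic nucleotide kinases. Heat shock factors drive some of these genes through heat shock elements, which are inverted repeats of the letters GAA in the promoter.

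Promoters are shown for Hspb6 and Hspb1, the members with the largest difference between groups and the largest spread between exercised samples. Both promoters hold matches to 2 such repeats, as does that of Hspb8, which was not analysed here. The Hspb3 promoter had no such match, and Hspb2 and Cryab had no promoter to search, so the members cannot be compared on this. The 250 bases before the annotated start are given from RefSeq (build GRCr8), at chr1:94934122-94934371 on the plus strand for Hspb6 and chr12:26432302-26432551 on the minus strand for Hspb1, 5′ to 3′, with matches to GAANNTTC or TTCNNGAA in capitals.
Hspb6: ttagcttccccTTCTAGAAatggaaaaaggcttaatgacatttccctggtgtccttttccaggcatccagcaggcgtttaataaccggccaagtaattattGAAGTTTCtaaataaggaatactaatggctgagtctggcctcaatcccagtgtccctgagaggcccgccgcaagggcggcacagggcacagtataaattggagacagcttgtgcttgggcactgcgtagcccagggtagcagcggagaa
Hspb1: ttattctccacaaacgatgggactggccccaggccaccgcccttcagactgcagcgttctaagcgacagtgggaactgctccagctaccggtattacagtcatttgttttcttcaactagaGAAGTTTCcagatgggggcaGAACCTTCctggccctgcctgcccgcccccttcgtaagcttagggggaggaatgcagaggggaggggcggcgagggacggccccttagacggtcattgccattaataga
Hspb6 had 1 match to TTCNNGAA, 239 to 232 bases before the start, and 1 to GAANNTTC, 149 to 142 bases before it, as well as a TATAAA box 58 to 53 bases before it. Hspb1 had 2 matches to GAANNTTC, 129 to 122 and 109 to 102 bases before the start. Both strands were searched, and each of these paired motifs reads the same on either strand. GAANNTTC was found in 7.23% and TTCNNGAA in 7.48% of all 33469 promoters of this length, either of them in 13.5%, and TATAAA in 12.9%. A match is a stretch of letters and not evidence of binding.

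Hspb6, also called Hsp20, is a target of cyclic nucleotide kinases in cardiac and smooth muscle, and it had the largest difference of the family. On probe set D29960_at its intensity ran from 16623 through a median of 20890.2 to 22886 in sedentary samples, and from 23825 through 26156 to 30898 in exercised samples. Every exercised sample was above every sedentary one. Of the 10 member probe sets this was the only one whose groups did not overlap, against 2.07% of the 6555 tested probe sets in either direction and 1.5% in this one. The means were 20406 ± 2216 and 26829.8 ± 2650.2 (SD, n = 6 each), a log2 difference of 0.39 ± 0.079 (SE) with a 95% interval of 0.22 to 0.56. All differences subtract the sedentary from the exercised mean of log2(intensity + 363), where 363, the 20th percentile of all values, damps the noise of dim probe sets. The limma adjusted p was 0.0542 over all tested probe sets, just above the threshold of 0.05. An exact two-sided permutation test of this probe set alone gave p = 0.00216 before any adjustment, the smallest that 6 against 6 samples allow. Groups that do not overlap always reach this value, so it adds nothing to the lack of overlap.

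The second Hspb6 probe set, rc_AI103838_g_at, ran from 15781 through 19247 to 20386 in sedentary and from 18212 through 26905 to 29922 in exercised samples. Of the 6 exercised samples, 5 were above the highest sedentary one, and exercised 8 lay within the sedentary range. The log2 difference was 0.43 ± 0.11 (SE, n = 6 each, 95% interval 0.21 to 0.66, limma adjusted p = 0.0853). With the group means removed both probe sets went together over the 12 arrays (Pearson r = 0.779), a description, since both measure 1 gene on the same arrays.

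**Figure D1:**
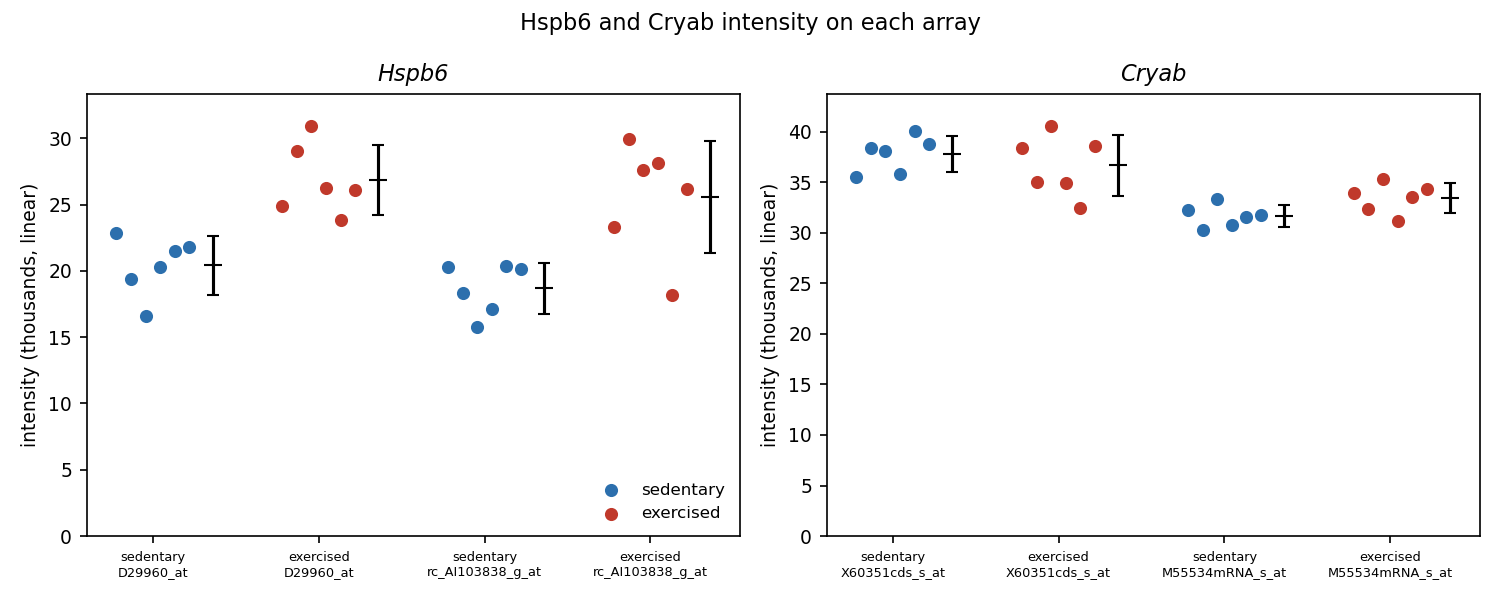
Intensity (linear axis from 0) of Hspb6 (left) and Cryab (right) on each of 6 sedentary (blue) and 6 exercised (red) arrays, for each probe set, with bars for the mean ± SD. On D29960_at the exercised arrays start at 23825, above the highest sedentary array at 22886, whereas the Cryab groups overlap on both probe sets.

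Single samples moved these calls. Without sedentary 13 the difference on D29960_at was 0.42 with a limma adjusted p of 0.0383, and without exercised 8 that on rc_AI103838_g_at was 0.53 with 0.0137. Each passed in only that 1 of the 12 fits with 1 sample left out, and over the 12 fits the adjusted p reached 0.112 and 0.161. Exercised 5 was highest on D29960_at and exercised 4 on rc_AI103838_g_at, and these were also the arrays lowest in the haemoglobin transcript Hbb (8786 in exercised 5 and 15784 in exercised 4, against 28362 to 37794 on the other 10). Without both, a choice made after seeing the data, the Hspb6 differences were 0.31 and 0.34 with adjusted p of 0.215 and 0.261.

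Hspb6 is abundant in smooth muscle as well as in cardiomyocytes. Of 10 listed smooth muscle markers 7 had a named probe set, none was at 0, and the 6 tested were all higher by sign, with none past the threshold and a median of 0.14. Their summed intensity was 22423 to 27700 in exercised and 20963 to 22955 in sedentary samples, and without desmin, which cardiomyocytes also make, 8098 to 10785 and 6898 to 9527. Of 11 fibroblast markers, all on the array and none at 0, 10 were tested and 9 were higher by sign (none past the threshold, summed intensity 55031 to 82166 and 43575 to 58958). Of 6 erythroid markers 3 were on the array and tested, and all were lower by sign with none past the threshold, among them Hbb at -0.58 (limma adjusted p = 0.295). Their summed intensity overlapped between groups, with 12676 to 37674 in exercised and 36352 to 42421 in sedentary samples. Their mean log2 level, centred over the arrays, was -0.63 to 0.08 in exercised and 0.11 to 0.20 in sedentary samples, with no overlap. Of 11 myeloid and leukocyte markers 9 were on the array and 7 tested, 3 higher and 4 lower by sign. Lyz2, the lysozyme of macrophages, was the only cell type marker past the threshold (0.997 ± 0.185, adjusted p = 0.0404). The summed myeloid intensity was 19703 to 25842 in exercised and 18143 to 20031 in sedentary samples. By the centred level the myeloid groups did not overlap either (-0.0079 to 0.19 exercised, -0.12 to -0.020 sedentary). Both myeloid measures include Lyz2, itself at 3274 to 9078 in exercised and 2000 to 2854 in sedentary samples. Neither was taken without it. Besides Lyz2, C1qb (0.37) and Cd8a (0.06) were higher, whereas Csf1r (-0.17), Ptprc (-0.14), Cd74 (-0.04) and Cd14 (-0.01) were lower. Smooth muscle and fibroblast markers overlapped between groups by both measures. The part of these 4 marker groups in the Hspb6 difference was not tested. The labelled tissue was checked with 11 ventricular cardiomyocyte markers, of which 10 were on the array and none was at 0. Their summed intensity overlapped between groups (392210 to 422124 exercised, 379336 to 429858 sedentary). Among them 9, including both cardiac myosin heavy chains and the ventricular light chains, had mean intensities from 18565 for Pln to 53710 for Actc1, while Ryr2 was at 726. Of 5 listed atrial markers 4 were on the array and tested, 2 higher and 2 lower by sign, with none past the threshold. Their summed intensity was 24360 to 43734 in exercised and 22481 to 51177.5 in sedentary samples, highest in sedentary 16. Myl7 among them reached 8652 in sedentary samples, against a sedentary median of 1255. Without sedentary 16 the Hspb6 differences were 0.38 on D29960_at and 0.43 on rc_AI103838_g_at (limma adjusted p of 0.097 and 0.146).

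Cryab, the alpha-B crystallin that binds desmin and titin, had the narrowest intervals of the 4 genes and no called difference. On X60351cds_s_at it ran from 35526 through 38238 to 40046 in sedentary and from 32450.1 through 36690.4 to 40527 in exercised samples. On M55534mRNA_s_at the values were 30310.2 through 31654 to 33318 and 31174 through 33697 to 35298. The probe sets differed in sign, with the exercised samples spanning the whole sedentary range on the first and 4 of 6 of them above it on the second. The log2 differences were -0.05 ± 0.053 (95% interval -0.16 to 0.07, limma adjusted p = 0.680) and 0.08 ± 0.039 (-0.01 to 0.16, adjusted p = 0.344), with SE and n = 6 per group. For the second an exact two-sided permutation test gave p = 0.0455 before any adjustment.

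Hspb2 lies next to Cryab in the genome, with no gene between them in the RefSeq table, and its product, known from muscle, binds the myotonic dystrophy kinase. Its probe set U75899mRNA_g_at ran from 4641 through 5304 to 5742 in sedentary and from 4845 through 5197 to 5638 in exercised samples. The dimmer U75899mRNA_at ran from 2777 through 3153 to 3524 and from 2795 through 3136 to 3377. On both probe sets every exercised value lay inside the sedentary range. The log2 differences were 0.00 ± 0.063 (95% interval -0.14 to 0.13, limma adjusted p = 0.993) and -0.03 ± 0.062 (-0.16 to 0.11, 0.849). These intervals do not hold the 0.39 and 0.43 measured for Hspb6, which is a description and not a test between the genes.

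**Figure D2:**
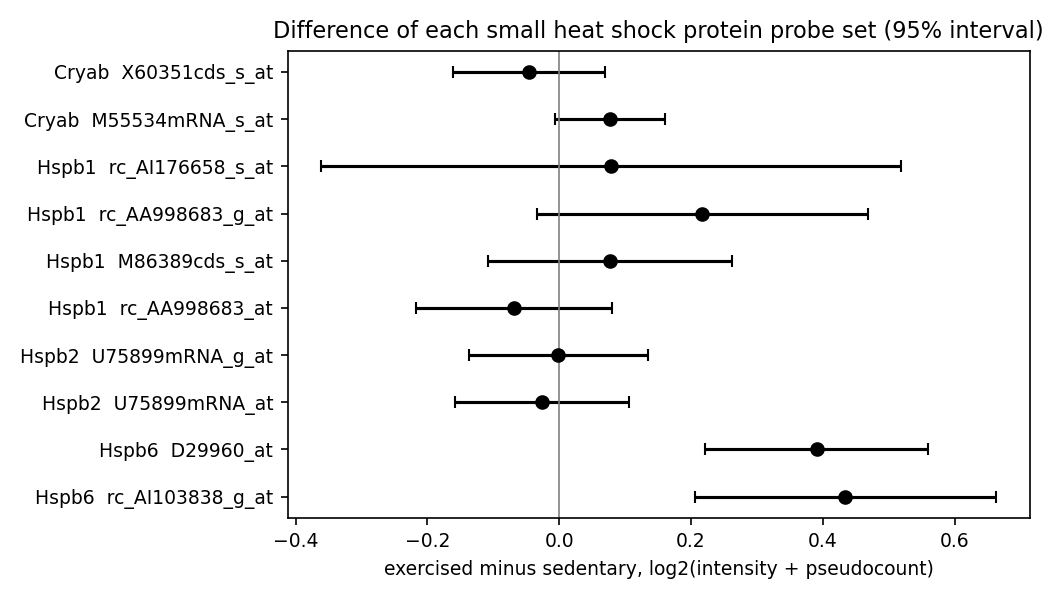
Exercised minus sedentary difference of each of the 10 member probe sets on the log2(intensity + pseudocount) scale, as points with the 95% interval from limma (n = 6 per group). Only the intervals of the 2 Hspb6 probe sets lie above 0, at 0.22 to 0.56 and 0.21 to 0.66.

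Hspb1, known as Hsp27 or Hsp25, is phosphorylated downstream of p38 kinase and stabilises actin filaments. Its 4 probe sets gave differences of both signs and none was called. The brightest, rc_AI176658_s_at, ran from 9361 through 10606 to 12725 in sedentary and from 5643 through 11562 to 19957 in exercised samples. Exercised 4 and 5 were above all sedentary samples and exercised 8 was below all of them. On rc_AA998683_g_at the sedentary values were 6346 through 7256 to 8309 and the exercised ones 6863 through 7911 to 11818, again with exercised 4 and 5 highest and exercised 8 lowest of their group. M86389cds_s_at ran from 5641 through 6308 to 6907 and from 5682 through 6681 to 8354, and rc_AA998683_at from 1895 through 2310.3 to 2463 and from 1754 through 2234 to 2332.

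In that order the log2 differences of Hspb1 were 0.08 ± 0.21, 0.22 ± 0.12, 0.08 ± 0.086 and -0.07 ± 0.070 (SE, n = 6 each), with limma adjusted p of 0.862, 0.374, 0.665 and 0.633. The probe sets rc_AA998683_at and rc_AA998683_g_at derive from 1 accession, yet their differences had opposite signs. For the brightest probe set 1 sample set the sign, since the difference was -0.08 without exercised 4 and 0.27 without exercised 8. On the others, in the same order, it came to 0.13 without exercised 4, 0.017 without exercised 5 and -0.021 without exercised 8. The wide 95% interval of rc_AI176658_s_at, -0.36 to 0.52, holds both differences measured for Hspb6, as does that of rc_AA998683_g_at, -0.03 to 0.47. The intervals of M86389cds_s_at, -0.11 to 0.26, and rc_AA998683_at, -0.22 to 0.08, hold neither. The Hspb6 differences have intervals of their own, 0.22 to 0.56 and 0.21 to 0.66, which that of M86389cds_s_at overlaps. Whether Hspb1 and Hspb6 differ in their response was not tested.

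Hspb1 also varied more among exercised than among sedentary samples. On rc_AI176658_s_at the SD of the log2 values was 0.57 in exercised and 0.14 in sedentary samples, a ratio of 4.07, and the highest exercised sample was 3.54 times the lowest, against 1.36 times in sedentary samples. The SD ratio was 2.09 on rc_AA998683_g_at, 2.22 on M86389cds_s_at and 1.22 on rc_AA998683_at. Over all 6555 tested probe sets the median ratio was 0.749, and 3 of the 4 Hspb1 probe sets lay at percentiles 95.9 to 99.6 of that distribution. The spread was not tested, and it rests on exercised 4, 5 and 8. In the same terms Hspb2 had ratios of 0.57 and 0.75, Hspb6 0.86 and 1.70, and Cryab 1.75 and 1.31, both above the lowest Hspb1 ratio.

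**Figure D3:**
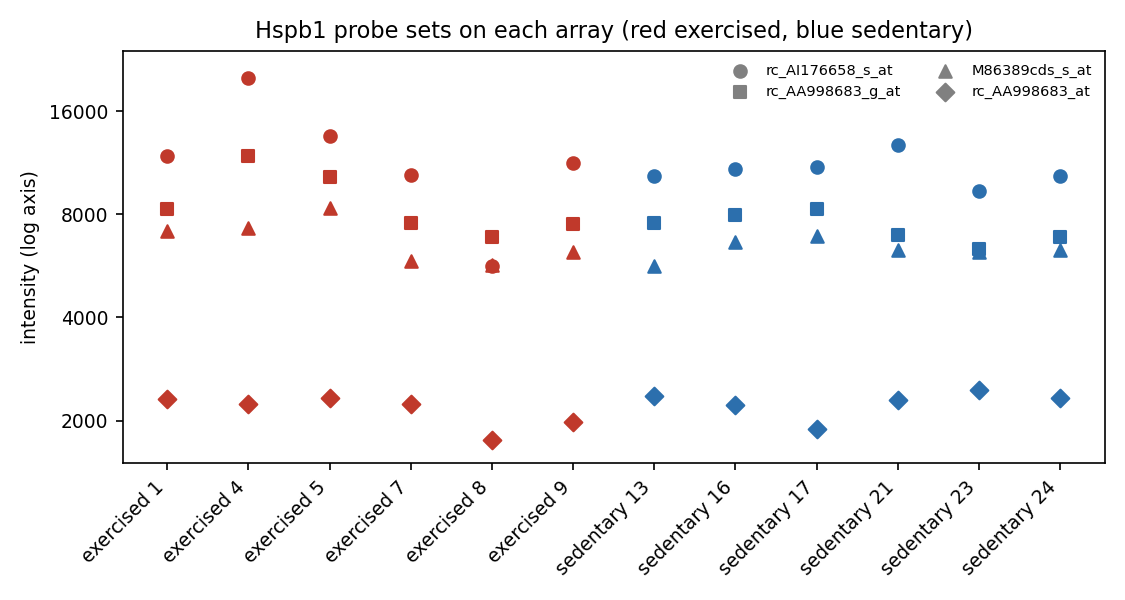
Intensity (log axis) of the 4 Hspb1 probe sets, 1 symbol each, on the 6 exercised (red) and 6 sedentary (blue) arrays. On rc_AI176658_s_at exercised 4 reaches 19957 and exercised 8 is at 5643, while the sedentary arrays lie between 9361 and 12725.

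A few samples held many of the extremes among the member probe sets. Exercised 8 was the lowest exercised sample on 8 of the 10 member probe sets, those of Hspb1, Hspb6, 1 of Cryab and 1 of Hspb2. Exercised 5 was the highest on 5 and the lowest on 1, of Hspb2, and exercised 4 was the highest on 3. How often each array was an extreme over all tested probe sets was not counted. Whether these counts are particular to the family is therefore not known. Among sedentary samples no one held more than 3 highest or 3 lowest values, and sedentary 17 was the lowest on both Hspb6 probe sets. Probe sets of 1 gene share its RNA, so these are counts over 4 genes.

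Of the 10 probe sets, 6 were higher and 4 lower in exercised samples by sign. Their median difference was 0.08 (log2), whereas 51.4% of all tested probe sets were higher and their median was 0.00. None of the 10 passed an adjusted p of 0.05 in limma (0.32% of all tested probe sets did, 21 of 6555, with 0.275% higher and 0.0458% lower). The exact rank-sum test gave an unadjusted p under 0.05 for 3 of the 10, against 15.1% of all tested probe sets. They were both Hspb6 probe sets and Cryab M55534mRNA_s_at. Its smallest p with 6 against 6 samples, 0.00216, adjusts here to 0.104, so no probe set could pass. In limma, at an unadjusted p under 0.05, there were 2, both of Hspb6 and both higher, against 16.2% of all tested probe sets, 9.26% higher and 6.91% lower. At a limma adjusted p under 0.10 the same 2 passed, against 2.2% of all tested.

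Ratios within an array were taken to set the members against each other. With the brightest probe set of each gene, the log2 ratio of Hspb6 to Cryab was higher by 0.44 ± 0.091 (SE, n = 6 each) in exercised samples. Centred on the sedentary mean, it ran from 0.27 to 0.62 in exercised and from -0.30 to 0.26 in sedentary samples. The groups thus did not overlap, as they did not for Hspb6 alone on this probe set. With the second brightest probe set of each gene the difference in this ratio was 0.36, but there the groups overlapped. Exercised 8 had less Hspb6 (18212) and more Cryab (33489) on these probe sets than sedentary 23 (20386 and 31583). The ratio of Hspb6 to Hspb2 was higher by 0.39 ± 0.089, from 0.25 to 0.59 against -0.16 to 0.32, and 4 of 6 exercised samples lay above all sedentary ones. Against Hspb1 the difference was 0.31 ± 0.22, with exercised values from -0.36 to 1.11, and it was 0.15 without exercised 8. The ratios among Cryab, Hspb1 and Hspb2 differed by 0.04 to 0.13 in size, less than their spread between samples. These ratios were formed after the values were known, so they are given with no test.

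**Figure D4:**
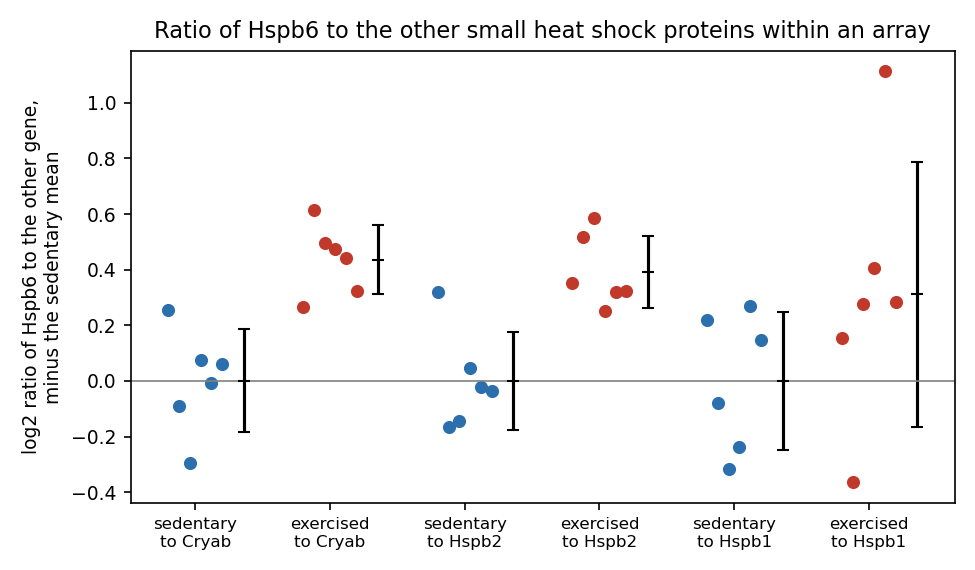
Log2 ratio of Hspb6 (brightest probe set) to Cryab, Hspb2 and Hspb1 on each sedentary (blue) and exercised (red) array, minus the sedentary mean of that ratio, with bars for the mean ± SD (n = 6). The ratio to Cryab runs from 0.27 to 0.62 in exercised against at most 0.26 in sedentary arrays, and the ratio to Hspb1 is spread from -0.36 to 1.11.

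With group means removed, the 4 genes did not follow each other closely. Over the 12 arrays and the 6 pairs of genes (brightest probe sets), Pearson r lay between 0.0817 for Hspb1 with Hspb2 and 0.418 for Hspb1 with Hspb6 (permutation p from 0.145 to 0.765, Benjamini-Hochberg adjusted 0.496 to 0.765). Spearman rho lay between -0.252 and 0.476 (permutation p from 0.121 to 0.578, adjusted 0.578). Without the 2 arrays farthest from the median, r ranged from -0.413 to 0.372. Between probe sets of 1 gene r was 0.458 for Cryab, 0.526 for Hspb2 and 0.218 to 0.799 for Hspb1.

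By rule, the genes whose deviations went most closely with each member were also listed, out of 3875 candidates on 12 arrays, as the highest r and thus with no test. For Hspb6 they were Csf3 (r = 0.887, rho = 0.818), Srpx (0.885, 0.804) and Zdhhc3 (0.873, 0.811). For Cryab they were Tff3 (0.901, 0.923), Or4b1d (0.872, 0.853) and RT1-Ba (0.859, 0.825), and for Hspb2 Asmt (0.884, 0.853), Capns1 (0.884, 0.860) and Ngfr (0.878, 0.874). For Hspb1 they were Ube2e3 (0.855, 0.629), Ireb2 (0.802, 0.350) and Lyz2 (0.781, 0.531), where the lower rho marks a relation carried by few arrays. All values share the array they came from.

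Of the ATP-driven cytosolic chaperones and co-chaperones that receive clients from small heat shock proteins, 20 of 36 listed genes were on the array and 19 were tested. Hsph1, a nucleotide exchange factor of Hsp70, rose (0.60 ± 0.10, limma adjusted p = 0.0276, with 0.21 and 0.0916 on its other probe set), and 18 did not pass. By sign 9 were higher and 10 lower, with a median of 0.00. The next highest by p were Cct3, a subunit of the chaperonin that folds actin and tubulin (0.25, adjusted p = 0.0797), and the J protein Dnaja4 (0.27, 0.171, and 0.11 on a second probe set). Lowest by p were the stress-inducible Hspa1a (-0.26, 0.0542) and the J proteins Dnajb5 (-0.22, 0.0993) and Dnaja1 (-0.13, 0.503, and -0.01 on a second probe set). Hspa1a and Hspb6 thus had opposite signs. Hsp70 genes of nearly the same sequence may add to the Hspa1a signal.

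In the mitochondrial and endoplasmic reticulum chaperones, 16 of 18 listed genes were tested. Hspe1, the mitochondrial co-chaperonin, rose on both probe sets (0.52 and 0.51, limma adjusted p = 0.00191 and 0.0302), and 15 genes did not pass (median 0.02). Its partner Hspd1 gave 0.27 (0.0614), and 0.25 (0.224) on its other probe set. P4hb gave 0.24 (0.150, with -0.13 and 0.23 on its other probe sets). The reticulum chaperones Hspa5 (-0.27, 0.245, and -0.05 on a second probe set), Hyou1 (-0.17, 0.330, and -0.02) and Pdia4 (-0.15, 0.498) were the lowest by p.

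**Figure D5:**
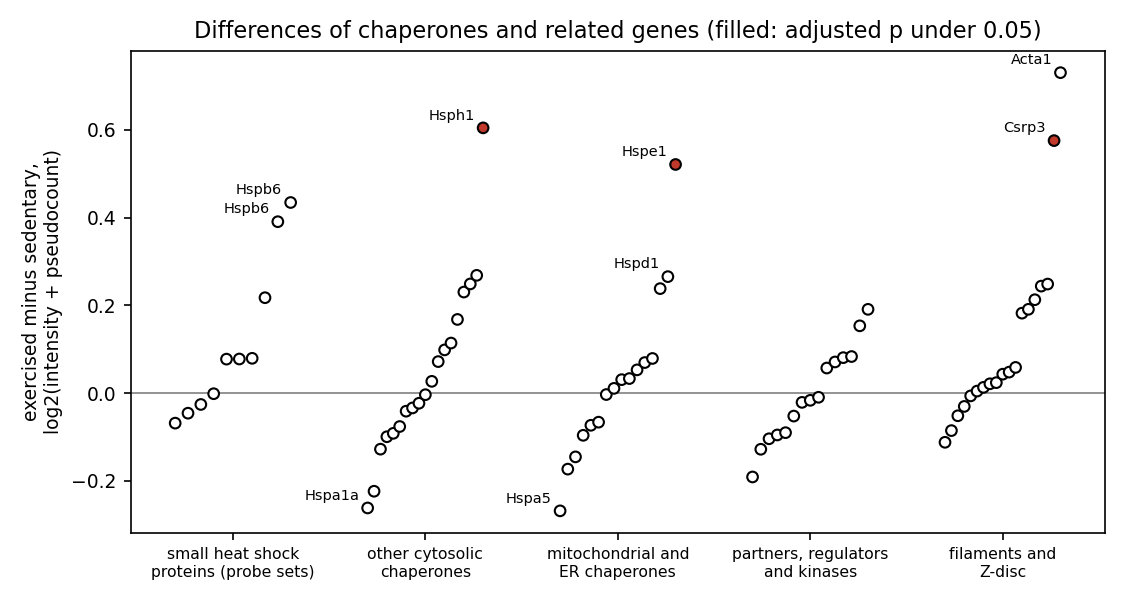
Exercised minus sedentary difference (log2(intensity + pseudocount)) of the 10 member probe sets and of the tested genes of 4 lists of related genes, 1 point per probe set or gene in rising order, filled where the limma adjusted p was under 0.05. Filled points are Hsph1 at 0.60, Hspe1 at 0.52 and Csrp3 at 0.58, and the 2 Hspb6 probe sets, at 0.39 and 0.43, are open.

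Of 30 listed partners, regulators and kinases of small heat shock proteins, 16 were on the array and none of 15 tested passed (limma, 2 higher and 2 lower at an unadjusted p under 0.05, median -0.02). Mapkapk2, the kinase that phosphorylates Hspb1, gave 0.15 (adjusted p = 0.234), and Prkaca and Prkacb, catalytic subunits of the kinase that phosphorylates Hspb6, gave -0.13 (0.286, and 0.06 on a second probe set) and 0.08 (0.412). The 14-3-3 proteins, which bind phosphorylated Hspb6, gave 0.19 for Ywhab (0.166), -0.19 for Ywhaz (0.128, with 0.00 and -0.04 on its other probe sets) and -0.10 for Ywhah (0.501, with 0.00). Hsf1, the main heat shock factor, gave -0.10 (0.536), with -0.09 and -0.07 on its other probe sets.

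Filament and Z-disc genes of the structures these chaperones bind had 19 of 25 listed genes tested. Csrp3, a LIM protein at the Z-disc, rose (0.58 ± 0.10, limma adjusted p = 0.0302) and 18 did not pass, with 14 higher and 5 lower by sign and a median of 0.04. Acta1, skeletal alpha actin, gave 0.73 (0.169) and the tubulin Tubb5 0.19 (0.171). Desmin, the intermediate filament held by Cryab, gave 0.21 (0.264), with 14014 ± 1787 in sedentary and 16279 ± 1948 in exercised samples. The lowest by p were Cryaa, the lens alpha-A crystallin and a relative outside the 6 genes (-0.11, 0.357), Actb (-0.09, 0.618) and Tpm1 (-0.03, 0.633, with -0.13 to 0.09 on its other probe sets).

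Heat shock element letters were also counted across the array. Of 3175 tested genes with a promoter in the table, 318 held GAANNTTC or TTCNNGAA, and their median difference was 0.00 with 159 higher and 159 lower, as against 0.00 for all. The longer form of 3 repeats, GAANNTTC followed by NNGAA, was in 0.663% of all promoters on either strand and in 12 of the tested genes, of which 6 were higher and 6 lower. Of all 3175 genes 11 passed the threshold as higher and 2 as lower. Hspe1 and Hsph1 were the 2 that passed among the 318, and also among the 12. Hspb1 and Hspb6 did not hold this longer form in their 250 bases. Whether either motif bears on any of these differences was not tested.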

How the data were processed

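The authors deposited 1 linear intensity per probe set and array. No label names the scaling, scanner or software. Array medians lay between 840 and 875, so the deposited scale was kept. A scale of this kind hides a change in total RNA. Probe sets were kept when their mean was above the 25th percentile of all means (434), which left 6555 of 8740. Log2(intensity + 363) was fitted in limma 3.58.1 under R 4.3.3 (lmFit, then eBayes with trend = TRUE). P-values are two-sided, were adjusted by Benjamini-Hochberg over all 6555 and were called at 0.05. The code was tested on simulated data.

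Names came from the platform annotation, where 7006 probe sets name 1 gene, 308 several and 1426 are unnamed. All 6 member symbols matched the RefSeq table of GRCr8, and 4 had a promoter there. No array coordinates are given, since no build is named. The members and lists were chosen with earlier results of these data known. Named genes were every member, the genes past the threshold and the 3 of smallest p in each direction per list, and the 3 most similar genes per member. Desmin, Hsf1 and the genes holding the longer motif were added after their values were seen. The brightest probe set stood for a listed gene. Labels give no batch or scan date. The member ratios and the pairs of samples left out were chosen after seeing the data.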

Additional observations from a re-analysis of the deposited data

How the results depend on the processing

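Of the small heat shock protein probe sets, 0 passed the adjusted threshold with all samples. The number was 1 with a filter at the median intensity, 1 with eBayes without trend, 2 with array weights and 2 at a threshold of 0.10, and 0 to 1 with each sample left out in turn. Over all probe sets 21 passed, against 32 with no filter, 50 with a filter at the median, 42 without trend, 160 with array weights, 144 at 0.10, 0 by the exact rank-sum test (which could not pass here, with 989 at an unadjusted p under 0.05), 3 to 37 with each sample left out, 5 without sedentary 16 and 17 and 4 without exercised 4 and 5. Of 260 refitted member values, 238 kept sign and side of the threshold, 13 changed sign, and 6, all of Hspb6, passed the adjusted threshold. The other 3, of both Hspb6 probe sets and Cryab M55534mRNA_s_at, were exact permutation p-values under 0.05 with no adjustment. Both Hspb6 probe sets kept their sign throughout, from 0.30 to 0.42 and from 0.34 to 0.53. The sign changes were of Hspb1 and Hspb2. Without exercised 4 and 5 the difference was -0.028 on M86389cds_s_at, -0.18 on rc_AI176658_s_at and 0.024 on U75899mRNA_at. With median scaling U75899mRNA_g_at gave 0.0052. With 1 sample left out rc_AI176658_s_at ranged from -0.079 to 0.27, U75899mRNA_at from -0.059 to 0.0027 and U75899mRNA_g_at from -0.032 to 0.026. The cause was not tested. With other settings the log2 ratio of Hspb6 to Cryab differed between groups by 0.34 to 0.49, that to Hspb2 by 0.31 to 0.46 and that to Hspb1 by 0.15 to 0.49. No paired analysis was possible because the numbers in the labels are not shared between groups. The number of arrays limits the precision.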
